A study of Mus musculus with 10 samples.

Results

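Matrix metalloproteinases (MMPs) and their tissue inhibitors (TIMPs) were followed in RNA from mouse aorta. The genes were taken by symbol from the deposited count table: 6 proteases (Mmp2, Mmp3, Mmp9, Mmp14, Mmp16 and Mmp17) and all 4 inhibitors (Timp1, Timp2, Timp3 and Timp4), which are 10 of the 55453 symbols listed. RNA was sequenced from aortae of male C57BL/6 mice, 5 young animals of 14.5 weeks and 5 old animals of 92.5 weeks by the labels, with no treatment named and 1 library per mouse. The aortae had been cleaned of the fat around the vessel, so that each library holds RNA of the whole remaining wall, and the libraries were made from poly(A) RNA. The question for these genes is whether the RNA of the enzymes that cut the vessel matrix, and of the inhibitors that hold them, differed with age.

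MMPs are zinc-dependent endopeptidases that are made as inactive proenzymes and cut collagen, elastin, proteoglycans and basement membrane once the propeptide is removed. TIMPs bind the active site of the enzymes and block it, and TIMP2 also takes part in the activation of pro-MMP2 on the cell surface by MMP14. In the arterial wall smooth muscle cells, fibroblasts and immune cells make members of both families, so the balance between protease and inhibitor is a usual measure of matrix turnover. RNA counts measure neither secretion nor activation of an enzyme.

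All 10 genes passed the filter on low counts and were among the 14614 genes tested. Old and young aortae differed at an adjusted p below 0.05 (edgeR's quasi-likelihood test with Benjamini-Hochberg adjustment) in 4 of the 10 genes, all of them proteases, whereas 11.5% of all tested genes were called. Mmp3 and Mmp9 rose in old aortae, against 6.48% of all tested genes called higher. Mmp16 and Mmp17 fell, against 4.99% of all tested genes called lower. None of the 4 inhibitors was called by this test. The median log2 fold change of old over young was -0.03 over the 10 genes, -0.15 over the 6 proteases, 0.06 over the 4 inhibitors and 0.0034 over all tested genes. The 5 old values lay wholly above or below the 5 young values for 3 of the 10 genes, against 9.92% of all tested genes. They lay above for Mmp3, as for 5.37% of all tested genes, and below for Mmp16 and Mmp17, as for 4.55%.

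**Figure D1:**
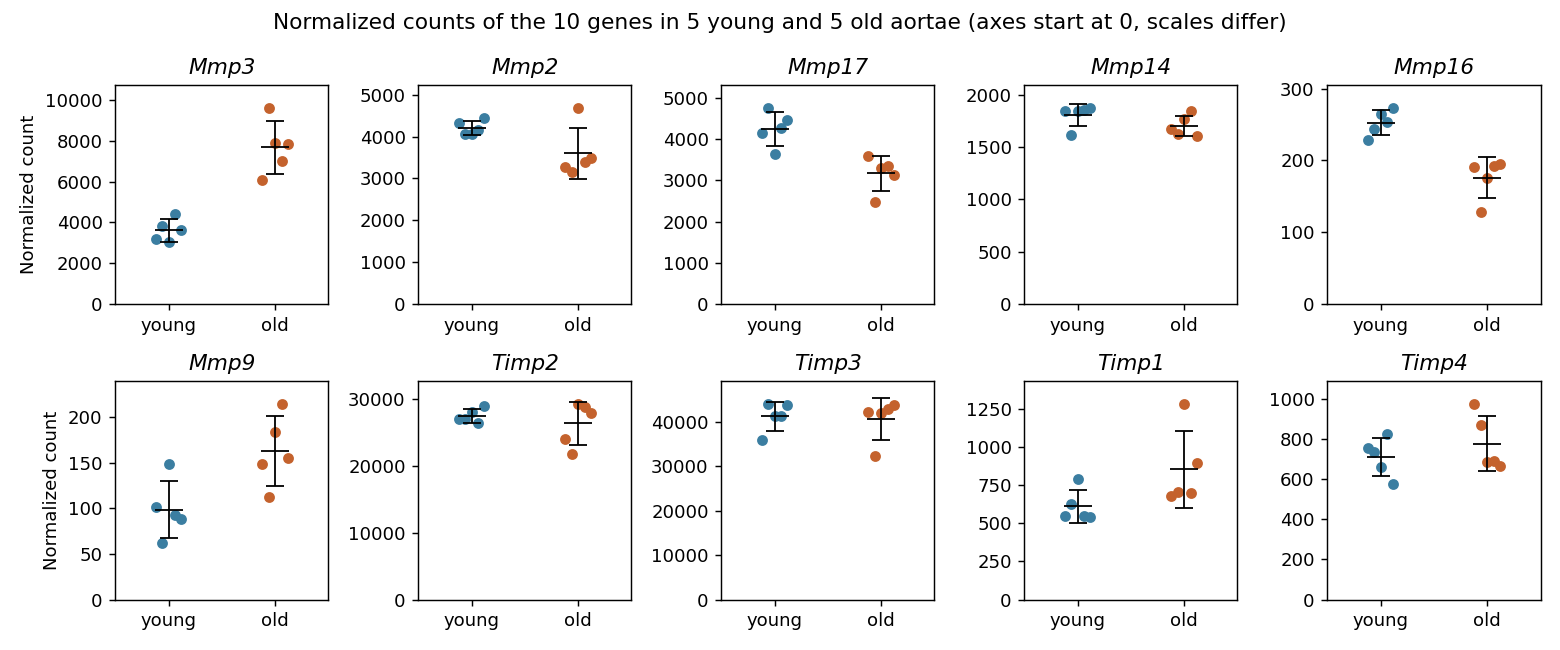
Normalized counts (count divided by the size factor of the library, linear axes from 0 with a scale of their own in each panel) of the 6 proteases and 4 inhibitors in young and old aortae. Each point is 1 mouse, and bars give the mean ± SD of 5 mice. The old points of Mmp3 lie above all young points, those of Mmp16 and Mmp17 lie below them, and those of the other 7 genes overlap.

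The libraries held between 19640401 and 22886153 counts in all. Old aorta 2 stood apart by a mitochondrial share of 11.0% of its counts, against 4.50% to 6.51% in the other 9 libraries. The labelled tissue was checked against 8 smooth muscle markers, all of which passed the filter, and their summed normalized count was 803211 to 953023 in young and 741823 to 906408 in old aortae. Acta2, the smooth muscle actin, alone had 345145 to 428922 in young and 289767 to 377025 in old aortae. Values without old aorta 2, and also without old aorta 3, which stood high for several genes, are given where they alter a result.

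Promoter sequence is shown for the member with the largest fold change, Mmp3, for Mmp14 as a protease that was not called, and for Timp1, the inhibitor with the largest fold change. The sequences are the 250 bases before the start of each gene in RefSeq (GRCm38.p6, plus strand), written in lower case with matches to 3 motifs in capitals. The motif of AP-1, the Fos and Jun dimer, was taken as TGANTCA. The TATA box, where the basal machinery binds, was taken as TATAAA. The GC box, which Sp1 binds, was taken as GGGCGG. Both strands were searched, and no match overlapped one of another motif.
Mmp3, chr9:7445572-7445821: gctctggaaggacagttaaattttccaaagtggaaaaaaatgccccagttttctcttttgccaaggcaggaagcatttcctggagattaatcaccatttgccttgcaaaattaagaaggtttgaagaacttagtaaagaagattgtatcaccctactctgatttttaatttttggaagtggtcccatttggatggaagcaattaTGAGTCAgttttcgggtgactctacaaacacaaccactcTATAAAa
Mmp14, chr14:54431348-54431597: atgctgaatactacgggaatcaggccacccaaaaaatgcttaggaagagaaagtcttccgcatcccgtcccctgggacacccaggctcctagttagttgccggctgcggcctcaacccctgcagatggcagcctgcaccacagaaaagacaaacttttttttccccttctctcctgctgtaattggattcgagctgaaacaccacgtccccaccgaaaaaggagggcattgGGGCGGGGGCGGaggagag
Timp1, chrX:20869916-20870165: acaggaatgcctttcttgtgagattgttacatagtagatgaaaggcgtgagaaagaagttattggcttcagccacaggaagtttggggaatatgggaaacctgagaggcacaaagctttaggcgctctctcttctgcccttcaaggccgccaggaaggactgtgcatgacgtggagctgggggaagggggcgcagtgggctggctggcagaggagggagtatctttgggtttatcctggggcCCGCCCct
The Mmp3 sequence held an AP-1 match that begins 46 bases before the start and a TATAAA match that begins 7 bases before it. The Mmp14 sequence held GC boxes at 19 and 13 bases, and the Timp1 sequence held 1 at 8 bases before the start. Over the 32851 promoters of the table, 6.75% held the AP-1 letters, 12.4% the TATA box and 32.7% the GC box. Of the 6 members with an entry in the table (these 3 and Timp2, Timp3 and Timp4), only Mmp3 held an AP-1 or a TATA match, and 4 held a GC box (Mmp14, Timp1, Timp2 and Timp3). The table held no entry for Mmp2, Mmp9, Mmp16 and Mmp17, so Mmp3 was the only gene called by edgeR whose promoter was examined. Whether these matches go with the age difference was therefore not tested. A match is a description of the letters, and binding was not measured.

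Mmp3 encodes stromelysin-1, which cuts proteoglycans, laminin, fibronectin and elastin and activates other pro-MMPs. The gene lies on chromosome 9 at 7445822 to 7455975 (GRCm38, plus strand). In young aortae 1 to 5 its normalized counts were 3199.8, 3809, 3016, 4431 and 3611, a mean of 3613 ± 556 (SD, n = 5). In old aortae 1 to 5 they were 6081, 9600.2, 7898, 7035 and 7835, a mean of 7690 ± 1297 (SD, n = 5). The lowest old aorta lay above the highest young aorta, and old aorta 2 had the most. In the old group Mmp3 rose 2.14-fold (95% interval 1.77 to 2.59), a log2 fold change of 1.10 (SE 0.13, adjusted p = 0.000251, edgeR with Benjamini-Hochberg adjustment). Among the 14614 tested genes it stood at place 92 by p. It was called under all 18 alternatives of tool, scaling, filter, pairing or samples, with log2 fold changes of 0.95 to 1.18.

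Mmp3 belongs to a cluster of 10 Mmp genes on chromosome 9 (7272514 to 7699585). Nearly all counts of the cluster fell on Mmp3, with 98.5% to 99.4% in young and 99.1% to 99.4% in old aortae. The other 9 genes together had normalized counts of 21.5 to 54.3 in young and 42.0 to 71.8 in old aortae. Of the 50-base windows of the Mmp3 transcripts, 8.39% also occur in transcripts of other genes, mostly of Mmp10, which had 1 read over all young and 6 reads over all old libraries.

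Mmp9 encodes gelatinase B, which cuts denatured collagen, type IV collagen and elastin and is a product of macrophages and neutrophils among other cells. It lies on chromosome 2 at 164940780 to 164955850 (plus strand). Young aortae 1 to 5 had normalized counts of 101, 62.4, 149, 92.7 and 88.1 (98.6 ± 31.5, SD, n = 5). Old aortae 1 to 5 had 149, 112, 184, 214 and 156 (163 ± 38.3, SD, n = 5). The groups overlapped, since young aorta 3 lay above old aorta 2, but 4 of 5 old aortae lay above the highest young one. Mmp9 rose 1.66-fold, a log2 fold change of 0.73 (SE 0.22, 95% interval 0.26 to 1.20), with an adjusted p of 0.0465 by edgeR with Benjamini-Hochberg adjustment. This call was close to the threshold: it was made in 8 of 18 alternatives, and the adjusted p ranged from 0.012 to 0.106. Leaving out any 1 mouse other than young aorta 3 or old aorta 2 ended it, with adjusted p values of 0.0594 to 0.106, and without the filter on low counts it was 0.054.

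Markers of macrophages and neutrophils, which make Mmp9, were examined beside it. In bulk tissue more or fewer cells of a type and more or less RNA per cell cannot be told apart. Over all tested genes 6.48% were called higher and 4.99% lower. Of 8 macrophage markers, 3 were called higher (Adgre1, Cd68 and C1qa) and none lower. Their summed normalized count was 4578 to 5836 in young and 5755 to 10927 in old aortae, with the highest value in old aorta 3. Of 8 neutrophil symbols only Csf3r passed the filter and was called higher, and the summed level was 27.2 to 44.0 in young and 52.5 to 179 in old aortae. Ly6g, a defining neutrophil marker, had 1 read in 1 old library and none in the other libraries. Old aorta 2 had the highest neutrophil sum and the lowest Mmp9 count of the old aortae. The part of these cells in the Mmp9 result was not tested.

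Mmp16 and Mmp17 encode membrane-anchored proteases. Mmp16 (MT3-MMP), which spans the membrane and can activate pro-MMP2, lies on chromosome 4 at 17852893 to 18119145 (plus strand). Its normalized counts were 228, 244, 264, 254 and 273 in young aortae 1 to 5 (252.4 ± 17.5, SD, n = 5). They were 191, 127, 175, 193 and 194 in old aortae 1 to 5 (176 ± 28.3, SD, n = 5). The highest old aorta lay below the lowest young aorta, and old aorta 2 was the lowest of all. The log2 fold change was -0.51 (SE 0.12, 95% interval -0.76 to -0.26), which is 0.703 of the young level, with an adjusted p of 0.0127 by edgeR with Benjamini-Hochberg adjustment. Without old aorta 2 and in the other 17 alternatives Mmp16 stayed called, at log2 fold changes of -0.55 to -0.39.

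Mmp17 (MT4-MMP) is held on the membrane by a glycosylphosphatidylinositol anchor and is expressed by vascular smooth muscle. It lies on chromosome 5 at 129584169 to 129611099 (plus strand). Young aortae 1 to 5 had normalized counts of 4153, 4746, 3630.2, 4264 and 4459 (4250.4 ± 413, SD, n = 5). Old aortae 1 to 5 had 3592, 2480.1, 3302, 3342 and 3119.9 (3167 ± 419, SD, n = 5). The groups did not overlap, though old aorta 1 lay just below young aorta 3. Mmp17 fell to 0.749 of the young level, a log2 fold change of -0.42 (SE 0.10, 95% interval -0.62 to -0.21, adjusted p = 0.0133, edgeR with Benjamini-Hochberg adjustment). It was called in all 18 alternatives, with adjusted p values of at most 0.047. Of the 8 smooth muscle markers, 1 was called higher (Smtn) and none lower, against 6.48% and 4.99% of all tested genes. Their summed levels overlapped between the groups, with the lowest sum in old aorta 2. The part of cell makeup in the lower Mmp16 and Mmp17 counts was not tested.

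Mmp2 encodes gelatinase A, the constitutive gelatinase of smooth muscle cells and fibroblasts, and lies on chromosome 8 at 92827291 to 92853420 (plus strand). Its normalized counts in young aortae 1 to 5 were 4331, 4070.4, 4059.9, 4166 and 4442 (4214 ± 168, SD, n = 5). In old aortae 1 to 5 they were 3273, 3150.3, 4676, 3394 and 3496 (3598 ± 616, SD, n = 5). Of the old aortae, 4 lay below every young aorta, but old aorta 3 lay above them all. The log2 fold change was -0.22 (SE 0.09, 95% interval -0.42 to -0.02), and the adjusted p was 0.154 by edgeR with Benjamini-Hochberg adjustment. Without old aorta 3 it was -0.33 with an adjusted p of 0.00281, so that 1 library decided whether Mmp2 was called. Old aorta 3 also had the highest macrophage sum, and the part of this difference was not tested.

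Mmp14 encodes MT1-MMP, the membrane collagenase that activates pro-MMP2, and lies on chromosome 14 at 54431612 to 54445364 (plus strand). Its normalized counts were 1846, 1618, 1849.5, 1850.2 and 1869.9 in young aortae (1807 ± 106, SD, n = 5) and 1672, 1627, 1768, 1840.4 and 1604 in old aortae (1702 ± 99.5, SD, n = 5). The groups overlapped. The edgeR fit gave a log2 fold change of -0.08 (SE 0.06), with an interval of -0.21 to 0.05 and an adjusted p of 0.448 by edgeR with Benjamini-Hochberg adjustment. No alternative called it.

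Timp2 and Timp3 had the highest levels of the 10 genes by group mean in normalized counts per kb of exonic length, in both groups. In old aorta 2 alone Mmp3 (5330.5 per kb) lay above Timp3 (3955 per kb). Timp3 encodes the inhibitor that stays bound to the extracellular matrix and also blocks ADAM proteases. Its normalized counts were 35786, 43933, 41335, 41188.5 and 43708.5 in young aortae 1 to 5 (41190.1 ± 3282, SD, n = 5). In old aortae 1 to 5 they were 42259, 32208, 42017, 42873 and 43804 (40632 ± 4759, SD, n = 5). Old aorta 2 lay lowest and the other old aortae lay within the young range. The log2 fold change was -0.01 (SE 0.09, 95% interval -0.21 to 0.18), which covers 0.866 to 1.14 times the young level, with an adjusted p of 0.953 by edgeR with Benjamini-Hochberg adjustment. The sign depended on the scaling: it was 0.02 with upper-quartile factors or with library size alone.

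Timp2 encodes the inhibitor that also serves as a bridge between MMP14 and pro-MMP2. Its normalized counts were 26962, 26967, 27989, 26410.0 and 28870.2 in young aortae 1 to 5 (27439.6 ± 982, SD, n = 5). The old aortae 1 to 5 had 24048, 21769.8, 29222, 28727 and 27952 (26344 ± 3269, SD, n = 5). Old aortae 1 and 2 lay below all young aortae and old aorta 3 above them, so that the old group had a wider spread on both sides. Timp2 had a log2 fold change of -0.05 (SE 0.08, 95% interval -0.23 to 0.13, or 0.853 to 1.09 times), with an adjusted p of 0.752 by edgeR with Benjamini-Hochberg adjustment.

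Timp1 encodes the inducible, secreted inhibitor that binds pro-MMP9. Its normalized counts were 548, 625, 792, 549 and 540.0 in young aortae 1 to 5 (611 ± 107, SD, n = 5). In old aortae 1 to 5 they were 682, 702, 1279.6, 701 and 897 (852 ± 255, SD, n = 5). Old aortae 3 and 5 lay above the highest young aorta, and the other old aortae lay within the young range. The log2 fold change was 0.49 (SE 0.19, 95% interval 0.08 to 0.90), and the adjusted p was 0.121 by edgeR with Benjamini-Hochberg adjustment. DESeq2 called it, at an adjusted p of 0.0444, in a test that called 5 of the 10 genes and 15.8% of all tested genes. Without old aorta 3, the library with the highest macrophage sum, the log2 fold change was 0.29.

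Timp4 encodes the inhibitor with the most restricted tissue range, found in heart, vessels and fat. Its normalized counts were 752, 733, 662, 824 and 574 in young aortae 1 to 5 (709 ± 94.99, SD, n = 5). The old aortae 1 to 5 had 972, 869.6, 686, 688 and 664 (776 ± 138, SD, n = 5). Old aortae 1 and 2 lay above all young aortae and the rest lay among them. Timp4 had a log2 fold change of 0.14 (SE 0.12, 95% interval -0.13 to 0.41, adjusted p = 0.524, edgeR with Benjamini-Hochberg adjustment). Of 8 adipocyte markers none was called, where 11.5% of all tested genes were called, but their median log2 fold change was -1.02. Their summed level was 10777 to 37121 in young and 6195 to 15386 in old aortae, with the highest sum in young aorta 1. The part of fat cells in the Timp4 values was not tested.

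**Figure D2:**
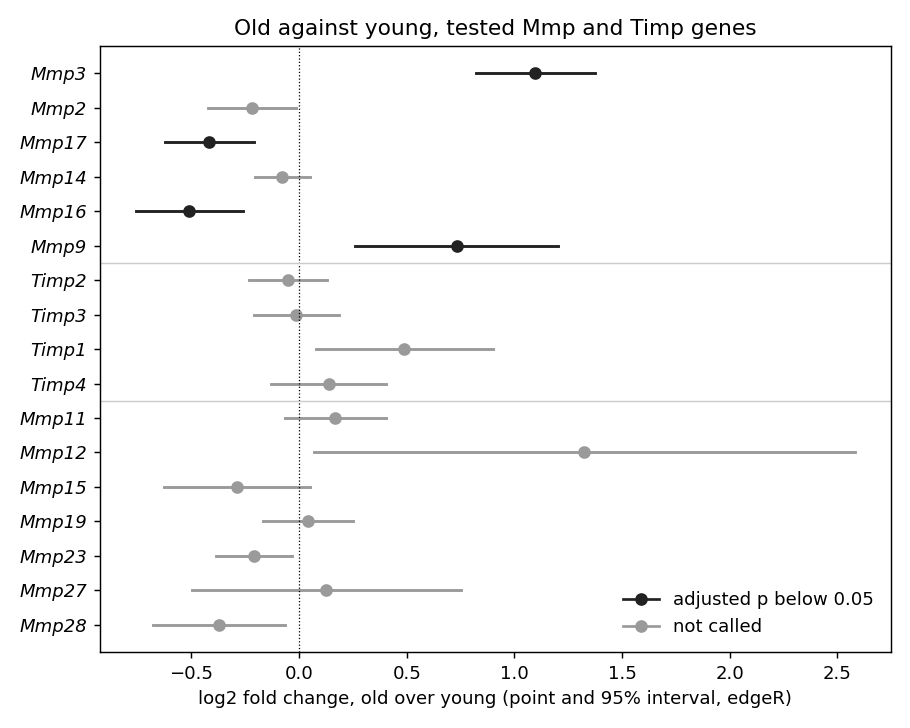
Log2 fold change of old over young aortae (horizontal axis) for the 10 genes and, at the bottom, the 7 other Mmp genes that passed the filter, with the 95% interval of the edgeR fit over 5 old and 5 young mice (black, adjusted p below 0.05; grey, not called). The black points are Mmp3 (1.10) and Mmp9 (0.73) above 0 and Mmp16 (-0.51) and Mmp17 (-0.42) below 0, and the intervals of Mmp14, Timp2, Timp3 and Timp4 span 0.

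Of the inhibitors, 3 lie inside a synapsin gene on the opposite strand. Timp3 (chromosome 10, 86300372 to 86349506, plus strand) lies inside Syn3, whose exons cover 1733 bases or 21.3% of the exonic length of Timp3. Syn3 had a normalized count of 231 ± 78.8 in young against 130.2 ± 70.6 in old aortae (SD, n = 5), with a log2 fold change of -0.82 and an adjusted p of 0.188 by edgeR with Benjamini-Hochberg adjustment. Timp1 (chromosome X, 20870166 to 20874735, plus strand) lies inside Syn1 with no exonic overlap. Timp4 (chromosome 6, 115241892 to 115252205, minus strand) lies inside Syn2 and shares 90 bases, 1.53% of its exonic length. Timp2 (chromosome 11, 118301069 to 118355740, minus strand) overlaps Cep295nl on the same strand, with no exonic base in common. Reads on shared exonic bases may have been counted for either gene or for none.

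To set the genes beside each other, normalized counts were divided by the exonic length in kb. Per kb, the order in young aortae was Timp2 (7043 ± 252.1), Timp3 (5058 ± 403), Mmp3 (2006 ± 309), Mmp2 (1250.0 ± 49.7), Timp1 (688 ± 120), Mmp17 (642 ± 62.4), Mmp14 (303 ± 17.8), Timp4 (120.3 ± 16.1), Mmp16 (29.1 ± 2.02) and Mmp9 (27.9 ± 8.89), as mean ± SD of 5 mice. The ranges of Timp1 and Mmp17 overlapped, as did those of Mmp16 and Mmp9, and the other neighbours in this order were apart. In old aortae Mmp3 reached 4269.7 ± 720.3 per kb, and its range overlapped that of Timp3 (4989 ± 584). Timp1 in old aortae reached 959.7 ± 287 per kb, with a range that overlapped that of Mmp2 (1067 ± 183). Mmp9 (46.0 ± 10.8 per kb) stood above Mmp16 (20.3 ± 3.26 per kb) in 5 of 5 old aortae, whereas in young aortae Mmp9 and Mmp16 had no fixed order.

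The summed level of the 6 proteases per kb was 4259 ± 341 in young against 6167 ± 680.0 in old aortae (SD, n = 5). Mmp3 made up 46.9% ± 3.56 of this sum in young and 68.9% ± 4.78 in old aortae. The share of Mmp2 was 29.5% ± 2.42 in young and 17.4% ± 2.73 in old aortae, and that of Mmp17 was 15.1% ± 1.07 and 7.91% ± 1.82. The summed level of the 4 inhibitors was 12909 ± 577 in young and 12842 ± 1496 in old aortae, with Timp2 at 54.6% ± 1.76 and 52.6% ± 1.55 of it. The share of Timp1 in the inhibitor sum was 5.32% ± 0.841 in young and 7.43% ± 1.68 in old aortae, and that of Timp3 was 39.1% ± 1.81 and 38.9% ± 2.20.

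**Figure D3:**
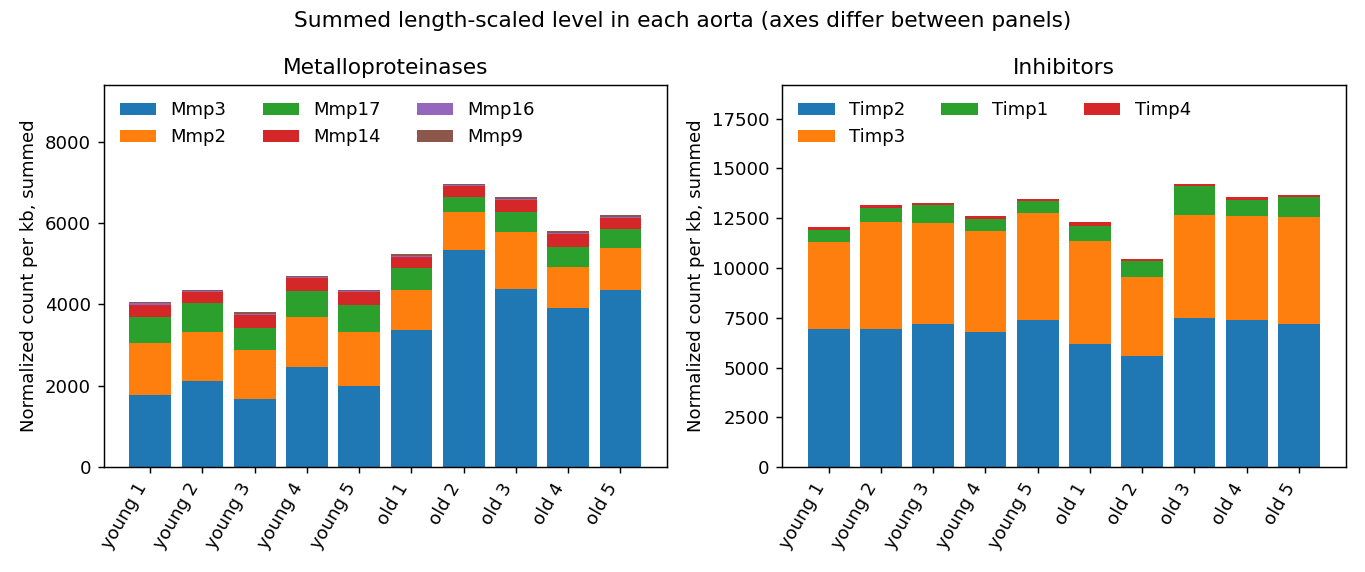
Summed normalized count per kb (vertical axis, from 0) of the 6 proteases and of the 4 inhibitors in each of the 5 young and 5 old aortae, with each gene as a segment of the bar. The Mmp3 segment holds 46.9% of the protease sum in young and 68.9% in old aortae on average, and the inhibitor sums average 12909 in young and 12842 in old aortae.

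The ratio of the summed proteases to the summed inhibitors, per kb, was 0.336, 0.331, 0.287, 0.374 and 0.324 in young aortae 1 to 5 (mean 0.33 ± 0.0309, SD, n = 5). In old aortae 1 to 5 it was 0.426, 0.664, 0.467, 0.429 and 0.453 (0.488 ± 0.100, SD, n = 5). The groups did not overlap, and old aorta 2 lay far above the other old aortae. The difference was 0.55 on the log2 scale, or 1.46-fold, and 0.43 without old aorta 2. No p is given, since the genes were chosen with earlier results of these libraries known.

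The direction of this balance rested on Mmp3. With Mmp3 left out, the ratio of the other 5 proteases to the 4 inhibitors was 0.175 ± 0.0102 in young against 0.148 ± 0.0101 in old aortae (SD, n = 5), a difference of -0.24 on the log2 scale, and every old aorta lay below every young aorta. With equal weight for each gene in place of summed levels the difference was -0.03. Without division by length it was 0.25. Including the other tested Mmp genes gave 0.38, and leaving out Timp2, the most abundant inhibitor per kb, gave 0.48.

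Ratios of enzymes to the inhibitors they are known to bind differed in direction. The ratio of Mmp3 to Timp1 per kb was 3.01 ± 0.761 in young against 4.69 ± 1.34 in old aortae (SD, n = 5), 0.63 higher on the log2 scale, with 4 of 5 old aortae above all young ones. The ratio of Mmp9 to Timp1 was 0.0404 ± 0.00894 in young and 0.0502 ± 0.0163 in old aortae, 0.30 higher on the log2 scale, with 2 of 5 old aortae above all young ones. This difference was 0.13 without young aorta 2 and likewise 0.13 without old aorta 4. For Mmp2 over Timp2 the ratio was 0.178 ± 0.00701 in young and 0.158 ± 0.0191 in old aortae, a log2 difference of -0.17, with 4 of 5 old aortae below all young ones. For Mmp2 over Timp3 it was 0.249 ± 0.0259 in young and 0.215 ± 0.0360 in old aortae, a log2 difference of -0.22, with 3 of 5 old aortae below all young ones. Mmp14 over Timp2 was 0.0431 ± 0.00253 in young and 0.0426 ± 0.00455 in old aortae, within the spread of both groups. When mice were left out singly, the difference of Mmp3 over Timp1 on the log2 scale was 0.48 to 0.78 and that of Mmp9 over Timp1 was 0.13 to 0.40. For Mmp2 it was -0.23 to -0.12 over Timp2 and -0.30 to -0.16 over Timp3, and that of Mmp14 over Timp2 changed sign (-0.07 to 0.03).

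**Figure D4:**
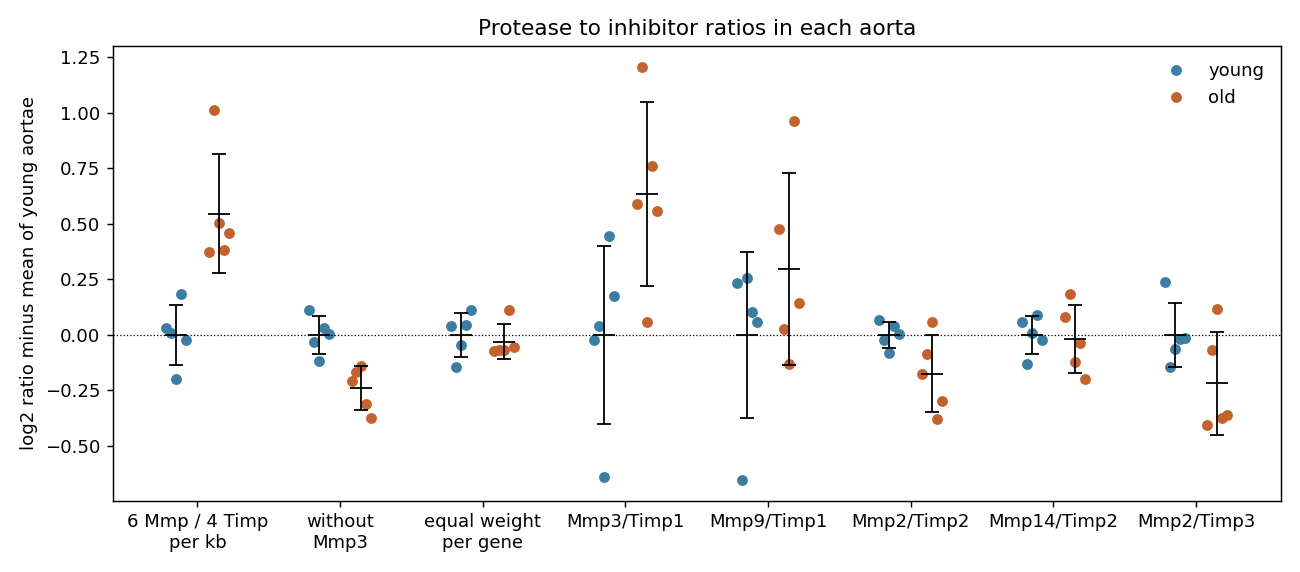
Log2 ratio of protease to inhibitor in normalized counts per kb, minus the mean of the young aortae (vertical axis), for the summed 6 proteases over the summed 4 inhibitors, the same without Mmp3, the same with equal weight per gene, and 5 enzyme and inhibitor pairs, where each point is 1 of 5 young or 5 old aortae and bars give mean ± SD. The summed ratio is higher in all old aortae, with a mean difference of 0.55, and lower in all old aortae once Mmp3 is left out, with a mean difference of -0.24.

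Among the 17 other Mmp genes of the table, 7 passed the filter. None was called by the edgeR fit with age group as its sole term, with a median log2 fold change of 0.04 over those 7. Mmp23, a membrane protease without a hemopexin domain, had a normalized count of 2806 in young and 2412 in old aortae (log2 fold change -0.21, adjusted p = 0.116 by edgeR with Benjamini-Hochberg adjustment). Mmp12, the macrophage elastase, had a normalized count of 8.81 in young and 22.2 in old aortae. Its log2 fold change was 1.33 (SE 0.58) with an adjusted p of 0.164 by edgeR with Benjamini-Hochberg adjustment. Without young aorta 3 Mmp12 was called, with a log2 fold change of 2.05 and an adjusted p of 0.0338 (edgeR with Benjamini-Hochberg adjustment). With all mice and a block on replicate number it was called too (adjusted p = 0.0456, same test). Without old aortae 2 and 3 the log2 fold change of Mmp12 was 0.79. Epilysin (Mmp28) had 536 and 412 and a log2 fold change of -0.37, and it was called only with the replicate block (adjusted p = 0.0445, edgeR with Benjamini-Hochberg adjustment). The membrane protease Mmp15 had 224 and 183 (-0.29), stromelysin-3 (Mmp11) had 289 and 323 (0.17), Mmp19 had 416 and 426 (0.04) and Mmp27 had 21.2 and 23.1 (0.13). Mmp11 was called without young aorta 1, with a log2 fold change of 0.28 and an adjusted p of 0.0422 (edgeR with Benjamini-Hochberg adjustment). Mmp1a, Mmp1b, Mmp7 and Mmp20 had no read in any library. Below the filter, total reads over 5 young and 5 old libraries were 22 and 28 for the collagenase Mmp13, 6 and 10 for the neutrophil collagenase Mmp8, 28 and 19 for Mmp24, 5 and 35 for Mmp25, and 1 and 0 for Mmp21.

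Activators and regulators of MMPs were examined as a list of 24 genes that holds plasminogen activators and their inhibitors, proprotein convertases and cell surface partners among others. Of the 22 that passed the filter, 1 rose, 1 fell and 20 were not called. Over all tested genes 6.48% were called higher and 4.99% lower, so these counts were near the shares over all genes. The median log2 fold change of the list was -0.09 against 0.0034 over all tested genes. Plat, the tissue plasminogen activator, rose from 2395 to 3184 normalized counts (log2 fold change 0.42, SE 0.08, adjusted p = 0.0035, edgeR with Benjamini-Hochberg adjustment). Itgb3, the integrin beta 3 chain that binds MMP2 with its alpha V partner, fell from 4817 to 3576 (log2 fold change -0.42, SE 0.09, adjusted p = 0.00898, edgeR with Benjamini-Hochberg adjustment). Both were called in all 18 alternatives.

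Matrix substrates of these enzymes were examined as a list of 14 genes. All were tested, 8 fell, 2 rose and 4 were not called, with a median log2 fold change of -0.33, where over all tested genes 4.99% were called lower and 6.48% higher and the median was 0.0034. Col3a1, a fibrillar collagen of the vessel wall, fell from 76905 to 40179 normalized counts (log2 fold change -0.93, adjusted p = 0.000241, edgeR with Benjamini-Hochberg adjustment). The 2 chains of type I collagen fell likewise, with log2 fold changes of -0.91 for Col1a1 and -0.75 for Col1a2. Acan, the large proteoglycan aggrecan, rose from 709 to 1196 normalized counts (log2 fold change 0.76). Lamb1, a laminin chain of basement membrane, fell with a log2 fold change of -0.67. Eln, which encodes elastin, fell from 115586 to 59348 normalized counts (log2 fold change -0.95, adjusted p = 0.0131, edgeR with Benjamini-Hochberg adjustment), but its adjusted p was 0.053 without the filter on low counts. The other called substrates were Vcan, which rose, and Col4a1, Hspg2 and Lamc1, which fell. Of the 8 fibroblast markers 1 was called higher (Lum) and 2 lower (Col1a1, also counted as a substrate, and Pi16). Their median log2 fold change was 0.03. Their summed levels were 127254 to 147936 in young and 103220.0 to 137290.0 in old aortae. Col1a1 is part of this sum, with 44381 to 66097 in young and 20983 to 39316 in old aortae. The sum is therefore not separate from the collagen results. The part of fibroblasts in the collagen results was not tested.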

How the data were processed

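RNA-seq counts of 5 young and 5 old mouse aortae were analysed, grouped by the titles of the samples. The authors trimmed reads with fastp 0.20.0 (minimum length 35), aligned them with STAR 2.7.0f to GRCm38 with the GENCODE M22 annotation and counted them per gene with featureCounts of Subread 1.6.4, and the deposited table holds these whole-number counts without normalization. The strand setting of the counting and the treatment of reads with several alignments are not given in the sources used here.

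Of 28011 genes with a read, 14614 passed the default filterByExpr rule on low counts (edgeR 4.0.16, R 4.3.3). A robust quasi-likelihood model of edgeR with TMM scaling and age group as its sole term gave the test of old against young, with Benjamini-Hochberg adjustment over all tested genes and a threshold of 0.05. All 10 members passed the filter, so the exact permutation test planned for members below it was not used. Fold changes, standard errors and 95% intervals are of this fit.

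Normalized counts are counts divided by DESeq2 1.42.0 size factors. Levels per kb used the exonic length of all transcripts joined, positions and overlaps came from GENCODE M21 of GRCm38, and promoters from a RefSeq table of GRCm38.p6. Protease to inhibitor ratios were computed per mouse and described without a test.

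The text names all 10 members, the other Mmp genes, and the called genes of the regulator and substrate lists, at most 6 per list by smallest p with values. For cell types it gives counts over 9 marker lists of 8 genes each. Members, lists and tests were chosen with earlier results of these data known, and no list is independent evidence. The 18 alternatives were DESeq2, limma-voom (limma 3.58.1), 3 other scalings, no filter, a block on replicate number, leaving out each mouse, and 1 more. That 1 left out both old aortae 2 and 3 and was chosen after seeing the data. A stricter threshold of 0.01 on the main fit was applied apart from these 18. The count tests were also run on simulated counts with known changes and no aorta set apart, and no result given here rests on that run. The labels do not describe technical repeats, and each library comes from 1 mouse, so the errors hold the spread between mice as well as counting error.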

Additional observations from a re-analysis of the deposited data

Results flagged for a closer look

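In 6 of the 32 groups of 5 values examined, 1 aorta lay apart from the other 4 by more than 0.71 of the whole range of its group. Chance gives such a gap in about 1 of 20 independent groups. The groups here share the same mice, and the ratios are built from the same genes. The 6 of 32 can therefore not be set directly against that share. Of the old aortae, number 3 stood highest for Mmp2, with a normalized count of 4676 and a gap of 0.773 of the range. Old aorta 2 stood lowest for Mmp16, with 127 and a gap of 0.713 of the range, and lowest for Timp3, with 32208 and a gap of 0.846. The same aorta stood highest for the ratio of summed proteases to summed inhibitors, at -0.59 on the log2 scale with a gap of 0.792 of the range. Of the young aortae, number 2 stood lowest for Mmp14, with 1618 and a gap of 0.906 of the range, and lowest for the ratio of Mmp9 to Timp1, at -5.32 on the log2 scale with a gap of 0.779. Old aorta 2 also had the mitochondrial share of 11.0%, and its part in these values was not tested.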

How the results depend on the processing

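Mmp3, Mmp16 and Mmp17 kept their direction and their call in all 18 alternatives of tool, scaling, filter, block and samples, whereas Mmp9 kept its direction in all and its call in 8. Of all tested genes 1676 were called, against 2304 by DESeq2, 658 at a threshold of 0.01, 954 without both old aortae 2 and 3, an alternative chosen after seeing the data, and 1132 to 2367 with 1 mouse left out. Of the 10 members 4 were called, against 5 by DESeq2, 1 at a threshold of 0.01 (Mmp3), and 3 to 4 with 1 mouse left out. The protease to inhibitor difference of 0.55 on the log2 scale was 0.25 without division by length, -0.030 with equal weight per gene, -0.24 without Mmp3, 0.40 without both old aortae 2 and 3, and 0.43 to 0.59 with 1 mouse left out. Signs of values near 0 turned for Timp2 (-0.093 to 0.0056 with 1 mouse left out), Timp3 (0.017 with upper-quartile factors, 0.016 with library size alone, 0.065 without old aortae 2 and 3, and -0.060 to 0.057 with 1 mouse left out), Mmp19 (-0.032 without both, -0.029 to 0.082 with 1 left out) and Mmp27 (-0.054 to 0.38 with 1 left out). The adjusted p of Eln was 0.0561 (edgeR with Benjamini-Hochberg adjustment) without old aortae 2 and 3. Replicate numbers are shared by the groups, and the labels name no pairing of the mice. The deviations of same-numbered mice correlated at -0.3 to 0.132 over genes. With 5 mice per group this cannot decide whether mice were paired. With the replicate block 1261 genes and 5 members were called, and Timp1 (adjusted p = 0.0159), Mmp12 (0.0456) and Mmp28 (0.0445) passed the threshold in edgeR with Benjamini-Hochberg adjustment. Depth limits the genes with few reads, such as Mmp12, and the p-values cover 5 mice per group of 1 sex and strain.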

Other observations

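The other marker lists gave these counts beside the values above, where 6.48% of all tested genes were called higher and 4.99% lower. Of 8 endothelial markers all were tested and 1 was called lower (Tek), with a summed normalized count of 23234 to 37541 in young and 13115 to 25970 in old aortae. Of 8 T cell markers 3 were tested and 2 were called higher, with a summed level of 23.6 to 76.7 in young and 63.0 to 229 in old aortae. Of the B and plasma cell markers 4 were tested and none was called by edgeR with Benjamini-Hochberg adjustment. Of the Schwann cell markers 7 were tested, 1 was called higher (Prx) and 1 lower (Pmp22). Their summed level was 5565 to 7331 in young and 4712 to 5464 in old aortae. Most of this sum was Pmp22, with 4534 to 5486 in young and 3256 to 3990 in old aortae. The part of any of these cell types in the protease and inhibitor values was not tested.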
